A study of Mus musculus with 3 samples.

Results

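The cytosolic ribosomal protein genes make up the 2 subunits of the ribosome that translates nuclear mRNAs. Array probes were taken by gene name: Rpl or Rps followed by a number with an optional a, x, l or y, or Rplp0, Rplp1, Rplp2 or Rpsa, with the Rps6k kinases left out. The names matched 130 probes of 78 genes. A probe was kept where the scanner software marked it as well above background in Cy5 on all 3 arrays, which 126 probes of 77 genes met, out of 25506 probes with 16982 names tested. All 126 passed the same mark in Cy3 on every array too, and none was saturated, so every one had a measured ratio. The 4 probes left out were the only Rpl3l probe and an additional probe each of Rps19, Rps2 and Rps6. The unsubtracted Cy5 signals of these 4 lay between 52.9 and 123.4 on the 3 arrays. The dimmest probe kept, of Rpl35a, had a mean log2 intensity of 6.997, and the brightest, of Rps23, 17.52.

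The RNA came from microdissected otic placodal ectoderm, the thickened ectoderm that forms the inner ear, of mouse embryos with 4 to 8 somites. One group carried 1 null and 1 wild-type allele of both Fgf3 and Fgf10 (Fgf3+/-;Fgf10+/-, double heterozygote) and the other carried no functional allele of either (Fgf3-/-;Fgf10-/-, double null); no wild-type embryos were compared, and the nulls were not tissue-specific deletions. Each genotype gave 3 pools of 10 placodes, described as biological replicates, and each of 3 two-colour arrays held 1 pool of each genotype. The double heterozygote carried Cy3 and the double null Cy5 on every array, so a dye effect and the genotype cannot be told apart for any probe. Values below are log2 ratios of double null over double heterozygote, after normexp background correction and loess normalisation within each array unless said otherwise. A positive ratio is a higher signal in the double null.

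Ribosomal proteins are made from short, very abundant mRNAs, and their synthesis is adjusted with growth. Their mRNAs begin with a tract of pyrimidines that ties their translation to growth signalling, and FGF receptors act through kinases of such pathways. The small subunit reads the mRNA, the large subunit joins amino acids, and the stalk of acidic proteins recruits the elongation factors.

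The targeted genes and tissue markers were examined first. The Fgf3 probe gave log2 ratios of -0.69, -0.064 and -0.69 on the 3 arrays (limma adjusted p = 0.121) and the Fgf10 probe 0.31, -0.11 and 0.23 (limma adjusted p = 0.386). The sources used here do not place the null alleles relative to these probes, so neither probe checks the labels. Of 10 otic and placodal markers 9 were measured, and Pax2 was not above background. Of 15 probes of these 9 genes, 2 were called lower and 0 higher, with a median of -0.23 and means from -1.01 to 0.041. The brightest Sox9 probe gave -0.93, -0.32 and -0.82 and was called (limma adjusted p = 0.048). Hmx3, a transcription factor of the otic placode, gave -1.56, -0.52 and -0.94 and was not (limma adjusted p = 0.052), Dlx5 gave -0.27, 0.16 and -0.30, and Tfap2a lay near 0 on each array. Surface epithelium markers were measured for 6 of 6 genes, neural plate markers for 5 of 5, and neural crest markers for 2 of 2, and 0 of their 14 probes passed the test. All 14 had negative means, with medians of -0.14, -0.13 and -0.22 for the 3 lists in that order. Head mesenchyme markers gave 0 of 6 probes called, with 3 positive means and a median of 0.097. Endoderm markers gave 1 of 4 called lower, Sox17 at -0.38, -0.61 and -0.62 (limma adjusted p = 0.015). Of the red cell markers, 2 of 5 genes were measured, with Hbb-bh1 at 1.43, -0.51 and 2.69. Across probes, the ribosomal protein ratios correlated between arrays at r = 0.906 to 0.959, against 0.362 to 0.414 over all probes tested, both given as descriptions. The 126 probes share 1 dye orientation and span mean log2 intensities from 6.997 to 17.52. Their ratio rose with intensity over that range, as given below, and these correlations include that rise. The part of blood or of tissue composition in the ribosomal protein ratios was not tested. In bulk RNA, a change in the mix of cells and a change in RNA per cell cannot be told apart.

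Ribosomal protein probes were mostly higher in the double null under this processing, and they were also among the brightest probes on the arrays. Of the 126 probes, 66 were called higher and 0 lower with limma at an adjusted p under 0.05, against 1.22% of all probes called higher and 0.29% called lower. The ratio was above 0 on all 3 arrays for 102 probes, against 24.5% of all probes tested, and below 0 on all 3 for 8. The median log2 ratio was 0.40, a 1.32-fold higher signal, against 0.010 over all probes. The medians were 0.35, 0.46 and 0.36 on arrays 1, 2 and 3 (SD 0.0632 over the arrays). By gene, 54 of 77 had at least 1 probe called higher, 35 had all their probes called, and 23 had none. These counts changed with the processing. With the scanner software's own processed signals, 0 of 126 probes passed and the median was 0.13. At an unadjusted limma p under 0.05 there were 59 of 126, of which 52 were higher, and 4417 of all 25506 probes. With loess fitted only on probes above background at a span of 0.1, 0 passed and the median was 0.11, with 61 at an unadjusted limma p under 0.05, of which 55 were higher, and 4838 of all probes.

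**Figure D1:**
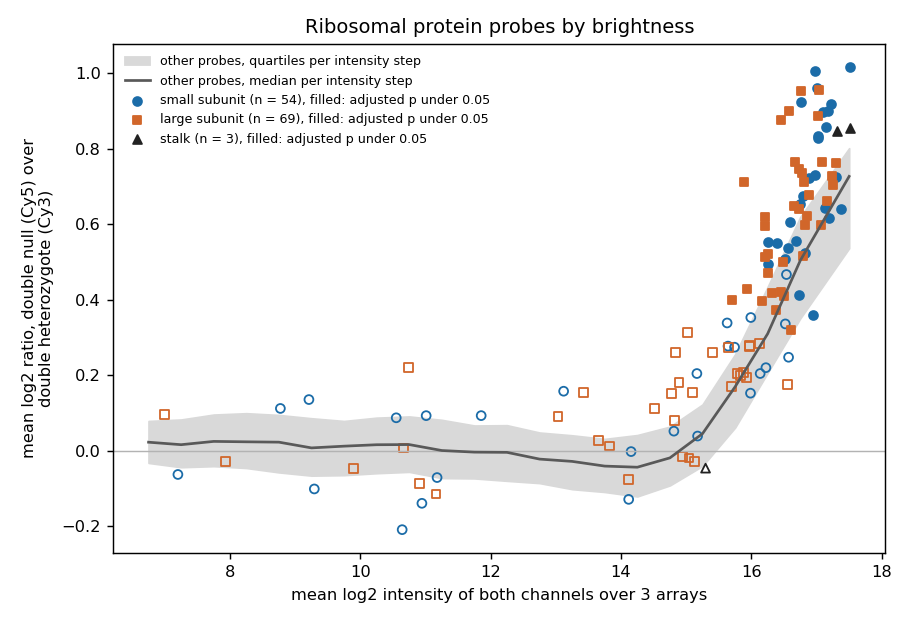
Mean log2 ratio of double null over double heterozygote (vertical axis) against mean log2 intensity of both channels (horizontal axis) for 54 small subunit, 69 large subunit and 3 stalk probes; filled symbols passed limma's test at an adjusted p under 0.05, and the grey line and band give the median and quartiles of other probes per step of intensity. The ratio climbs with brightness for the other probes too, to a median of 0.73 at intensities over 17, and the ribosomal protein probes lie mostly above that line.

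The ratio was higher in brighter probes. Over the 126 probes the ratio correlated with mean log2 intensity at r = 0.717, and at r = 0.811 over the 94 probes above an intensity of 15 (descriptions over probes that share arrays, dyes and normalisation). Ribosomal protein probes were 40 of the 100 brightest probes tested and 11 of the 20 brightest. Above an intensity of 16, 63 of 70 ribosomal protein probes were called higher, and so were 129 of 208 other probes (62.0%). The median log2 ratio there was 0.64 for ribosomal protein probes and 0.42 for the others. Below an intensity of 15, 0 of 32 ribosomal protein probes were called, with medians of -0.029 from 6 to 12 and 0.079 from 12 to 15. Calls were as rare among other probes there, with 0.374% called higher from 6 to 12 and 0.283% from 12 to 15. Before any normalisation, the median Cy5 over Cy3 log2 ratio was 2.26, 2.17 and 2.03 for the ribosomal protein probes and 1.31, 1.103 and 1.09 for all probes on arrays 1, 2 and 3.

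The ratio of each probe was therefore also set against the median of about 100 other probes nearest to it in brightness. The median difference was 0.12, with 0.12, 0.18 and 0.088 on the 3 arrays (SD 0.0456), and 100 of 126 probes lay above their neighbours. On all 3 arrays 74 probes lay above and 15 below, against 21.5% of all probes above. Above an intensity of 16, 51 of 70 lay above on all 3 arrays, against 42.8% of other probes that bright. The remaining gap was thus smaller than the ratio itself. At the very top the neighbours were dimmer than the probes set against them: only 24 other probes exceeded 17, and the window for Rps23 ran from 16.50 to 17.85. Over 17, the 22 ribosomal protein probes had a median ratio of 0.83 and the 24 others 0.73, with 22 of 22 and 21 of 24 called higher. Their median differences from these neighbours were 0.30 and 0.21.

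**Figure D2:**
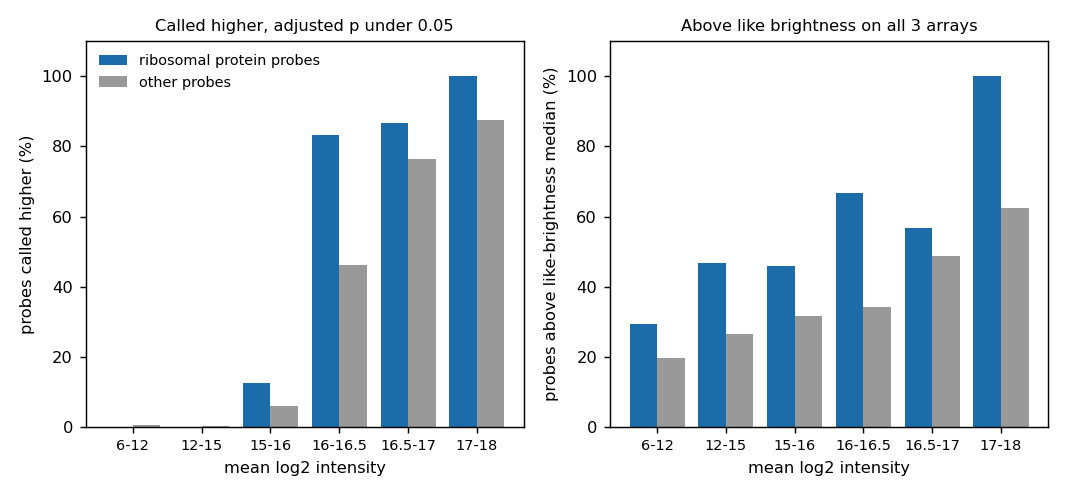
Percent of probes called higher by limma (left) and percent above the median of like-bright other probes on all 3 arrays (right), by step of mean log2 intensity, for ribosomal protein probes (blue) and other probes (grey). From 16 to 16.5, 83.3% of ribosomal protein probes and 46.3% of others were called higher; from 17 to 18 the shares were 100% and 87.5%.

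The array files record that very bright spots were read from a second scan at lower gain and scaled up. Both channels came from that scan on all 3 arrays for 88 ribosomal protein probes, and all 66 called probes were among them. The same held for 511 other probes, of which 153 (29.9%) were called higher, at a median of 0.19. These others were dimmer, with a median intensity of 15.85 against 16.60 for the 88. Among the 19 ribosomal protein probes read from the normal scan in both channels, 0 were called, with a median of 0.007. Of 23074 other probes read that way, 80 (0.347%) were called higher. The part of the second scan in the ratios was not tested. The GC content of the 60-base probes had a median of 45.0% for ribosomal protein and 41.7% for other probes, and did not follow the ratio (r = -0.016 over 126 probes, as a description).

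Small subunit genes held the highest single values. Of 54 small subunit probes from 32 genes, 28 were called higher and 0 lower, with a median of 0.44. Rps23, whose protein sits at the decoding centre, gave Cy3 signals of 66868, 63416 and 74883 and Cy5 signals of 533370, 522880 and 494378. Its log2 ratios after normalisation were 0.95, 1.20 and 0.90. Under this processing the mean of 1.02 ± 0.16 (SD, n = 3) is a 2.02-fold higher signal in the double null. Its standard error was 0.070 and its adjusted p 0.0032 by limma. With the processed signals the Rps23 ratio was 0.43, and with loess on probes above background at a span of 0.1 it was 0.38. It was called under neither. In the main processing all 3 values lay well above 0. All 3 arrays were high, array 2 the highest, and the difference from like-bright probes was 0.44, 0.67 and 0.37. The other probes at the top moved alike across arrays. The brighter Rps12 probe gave 0.91, 1.23 and 0.87, and Rps14, the gene lost in human 5q deletion syndrome, 0.93, 1.09 and 0.86. Of 3 Rps18 probes, the one of highest mean gave 0.95, 1.09 and 0.73. Array 2 was again the highest for each of these. The brightest Rps18 probe, on the same reference mRNA, gave 0.71, 1.04 and 0.82 (limma adjusted p = 0.0048). The dimmest Rps18 probe had a mean of 0.11 (limma adjusted p = 0.286). The other Rps12 probe, drawn from another accession and at an intensity of 10.94, gave 0.11, -0.16 and -0.36 (limma adjusted p = 0.419), and the range of 1.14 between these probes was the widest of any gene. Rps28 went the other way, with 1.08 on array 1 and 0.90 and 0.78 on the others, so the order of arrays was not fixed. Rps2 had 2 probes of the same brightness (17.18 and 17.19), which gave 0.93, 0.94 and 0.83 against 0.65, 0.65 and 0.55. The ranges did not overlap, and both were called higher, at limma adjusted p-values of 0.0030 and 0.0048.

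Some bright small subunit genes stayed below their neighbours. Rps21 at 16.57 gave 0.25, 0.32 and 0.16 (limma adjusted p = 0.090) and a difference of -0.19. Rps9 at 15.99 gave a mean of 0.15 with a difference of -0.064, and did not pass. Rps6, the substrate of the S6 kinases and a common readout of growth signalling, gave 0.52, 0.58 and 0.55 (limma adjusted p = 0.0049), a tight set 0.20 above its neighbours.

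**Figure D3:**
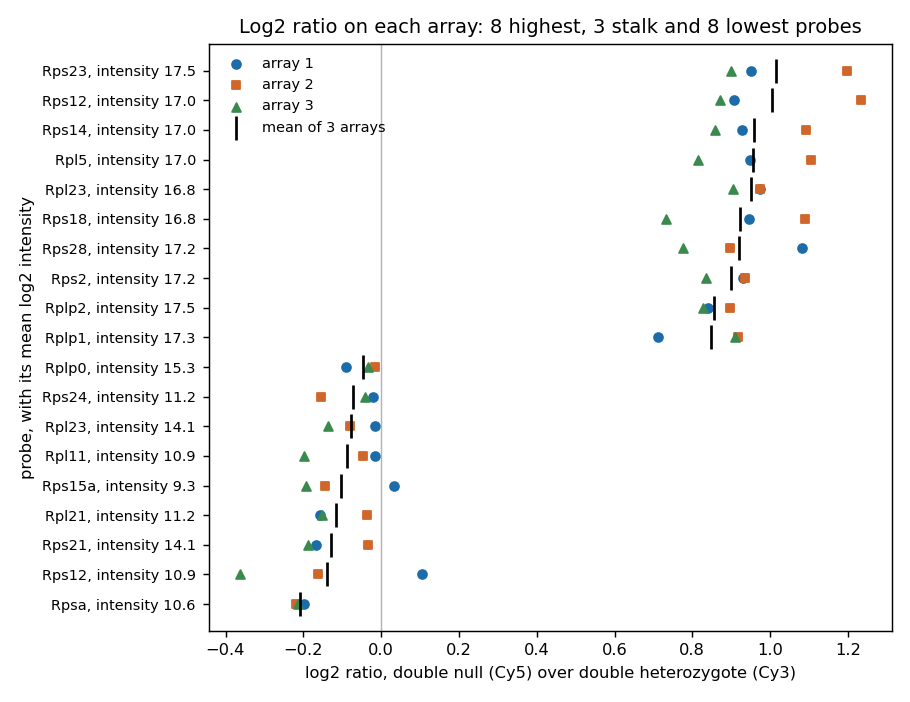
Log2 ratio on each of the 3 arrays (horizontal axis; symbols by array, black bars for means) for the 8 probes of highest mean, the 3 stalk probes and the 8 of lowest mean, each with its mean log2 intensity. The highest 8 lie between 0.73 and 1.23 on every array at intensities of 16.8 to 17.5; the lowest 8 lie between -0.36 and 0.11 at 9.3 to 14.1.

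Large subunit probes gave nearly the same share of calls. Of 69 probes from 42 genes, 36 were called higher and 0 lower, with a median of 0.37. Rpl5 and Rpl11 bind the small ribosomal RNA of the large subunit and can bind Mdm2, the ubiquitin ligase of Trp53. Rpl5 gave 0.95, 1.105 and 0.81, a mean of 0.96 ± 0.15 (SD, n = 3). The brighter Rpl11 probe gave 0.77, 0.90 and 0.62. Rpl23, another Mdm2-binding protein, gave 0.97, 0.98 and 0.90 at its brighter probe, a mean of 0.95 ± 0.041 (SD, n = 3) with a limma adjusted p of 0.0030. Rpl3, near the catalytic centre, gave 0.97, 0.86 and 0.87, and Rpl12, at the base of the stalk, 0.85, 0.99 and 0.82. Each of these 5 probes lay above its like-bright neighbours on all 3 arrays. Rpl13a stood farthest above its neighbours: at an intensity of only 15.88 it gave 0.73, 0.77 and 0.64 (limma adjusted p = 0.0033), which is 0.54, 0.57 and 0.46 over like-bright probes. With the processed signals its ratio was 0.43 and it was no longer called (limma adjusted p = 0.207). Rpl17 gave 0.77, 1.08 and 0.78, with a difference of 0.48, and shared a run of 25 bases or more with probes of 2 other names, at 0.57 and 0.54. At the other end Rpl36a was bright and lay low: its 3 probes at 16.50 to 16.61 gave means of 0.41, 0.32 and 0.18, and the lowest lay 0.23, 0.27 and 0.27 under its neighbours.

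The 3 stalk genes split. Rplp2 gave 0.84, 0.90 and 0.83 (limma adjusted p = 0.0030) and Rplp1 0.71, 0.92 and 0.91 (limma adjusted p = 0.0032), at intensities of 17.51 and 17.31. Both lay above their neighbours on every array, by 0.31 and 0.30 on average, though those neighbours reached down to an intensity of 16.50. By the same measure the 24 other probes over 17 had a median difference of 0.21. Rplp0, the scaffold that carries Rplp1 and Rplp2, was read by a single probe, spotted 10 times per array, at an intensity of 15.30. Unlike those of Rplp1 and Rplp2, it was not drawn from a reference mRNA. It gave -0.091, -0.015 and -0.034 (limma adjusted p = 0.632). It lay 0.13, 0.084 and 0.069 below its neighbours. Its 3 values did not overlap with those of Rplp1 or Rplp2, yet its probe was also the dimmer one, and the part of brightness in this difference was not tested.

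Paralogues and the laminin receptor gene gave both high and low values. Rps4x, the X-linked form, gave 0.51, 0.69 and 0.73 at a bright probe and -0.086, -0.042 and -0.063 at a probe of intensity 7.20 drawn from an expressed sequence tag. Rps27l, a paralogue of Rps27, gave 0.0045, 0.42 and 0.19 (limma adjusted p = 0.232), and Rps27 itself 0.59, 0.89 and 0.69. Rpsa, first known as a laminin receptor precursor, held the lowest mean of the 126 probes: its dimmer probe gave -0.20, -0.22 and -0.21 (limma adjusted p = 0.096), and its brighter one 0.11, 0.14 and -0.14. The first was the tightest set of arrays among the 126 probes and sat 0.22 below its neighbours, and it did not pass the test.

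Among genes known for Diamond-Blackfan anaemia, 6 had a probe called higher, namely Rps7 (0.72, 0.76 and 0.70), Rps24 (0.38, 0.85 and 0.59), Rpl5, Rpl11, Rpl26 (0.56, 0.75 and 0.64) and Rpl35a (0.45, 0.74 and 0.66). The values are of the brightest probe, and dimmer probes of 3 of these genes were not called. Their means were 0.092 and -0.072 for Rps24, -0.087 for Rpl11, and 0.31 and 0.096 for Rpl35a. No probe of Rps19, Rps10 or Rps26 passed, though their brightest probes had positive means of 0.35, 0.34 and 0.27 at lower intensities of 15.63 to 15.99. Genes of mouse developmental mutants gave both outcomes. Rpl38, mutated in Tail-short mice and linked to translation of Hox mRNAs, gave 0.64, 0.72 and 0.51 (limma adjusted p = 0.0064). Rps20, mutated in dark-skinned mice, gave 0.59, 0.73 and 0.60 at 17.37. Its dimmer probe gave 0.079, 0.23 and -0.049 (limma adjusted p = 0.496). Rpl24, of Belly spot and tail mice, gave 0.23, 0.30 and 0.25 (limma adjusted p = 0.066) and, at its dimmer probe, 0.044, 0.14 and 0.054.

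Different probes of the same gene often gave different ratios, with the brighter probe the higher. For 37 genes at least 2 probes were measured. The brightest probe exceeded the dimmest in 31 of them, the median range was 0.40, and 15 genes had probes more than 0.5 apart. For 26 genes the probes were designed on the same reference mRNA, and the brightest was the higher in 21. Rpl7, whose protein contacts the ribosomal RNA of the large subunit, shows this with 3 probes designed on its reference mRNA. They are printed 5′ to 3′ with positions on the mouse build mm7, minus strand, because they read the same message at 3 places. The first lies at chr1:16290456-16290515, the next spans an intron at chr1:16291470-16291867 and the last lies at chr1:16292191-16292250.

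Rpl7, log2 ratio 0.76, intensity 16.67: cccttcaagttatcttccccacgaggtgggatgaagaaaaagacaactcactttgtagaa

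Rpl7, log2 ratio 0.60, intensity 16.83: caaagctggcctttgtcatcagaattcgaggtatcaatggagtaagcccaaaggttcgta

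Rpl7, log2 ratio -0.020, intensity 15.04: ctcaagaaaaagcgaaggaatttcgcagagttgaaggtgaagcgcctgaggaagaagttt

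The first probe gave 0.81, 0.75 and 0.72, and the second 0.53, 0.63 and 0.64. The third gave -0.067, -0.028 and 0.036, with no overlap with either. It was less bright than both, and the 60-base sequences have similar GC contents of 43.3% to 45.0%.

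Rpl19, a large subunit protein often used as a reference for normalisation, had 2 probes on the same reference mRNA, at intensities of 16.74 and 15.12. The brighter gave 0.65, 0.72 and 0.55 (limma adjusted p = 0.0048) and the dimmer -0.010, 0.024 and -0.10 (limma adjusted p = 0.780). The Rpl23 probes, both on the same reference mRNA, lay farthest apart of all such pairs: 0.95 at an intensity of 16.76 and -0.077 at 14.11. The Rpl29 probes differed less: 4 probes between 13.42 and 15.09 gave 0.26, 0.15, 0.15 and 0.15. Over these intensities the other probes also changed little, with medians of -0.029 from 13 to 13.5 and 0.045 from 15 to 15.5. All 4 Rpl29 probes lay above their neighbours, by 0.14 to 0.28, and none passed. Rpl36 and Rpl10 also had pairs within 0.043 of each other. For Rps23, the highest of all, only 1 probe was measured, at chr13:87997838-87997897 on mm7, plus strand, so its value has no second probe.

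Rps23, log2 ratio 1.02, intensity 17.52: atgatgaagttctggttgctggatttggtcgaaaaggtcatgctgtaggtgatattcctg

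**Figure D4:**
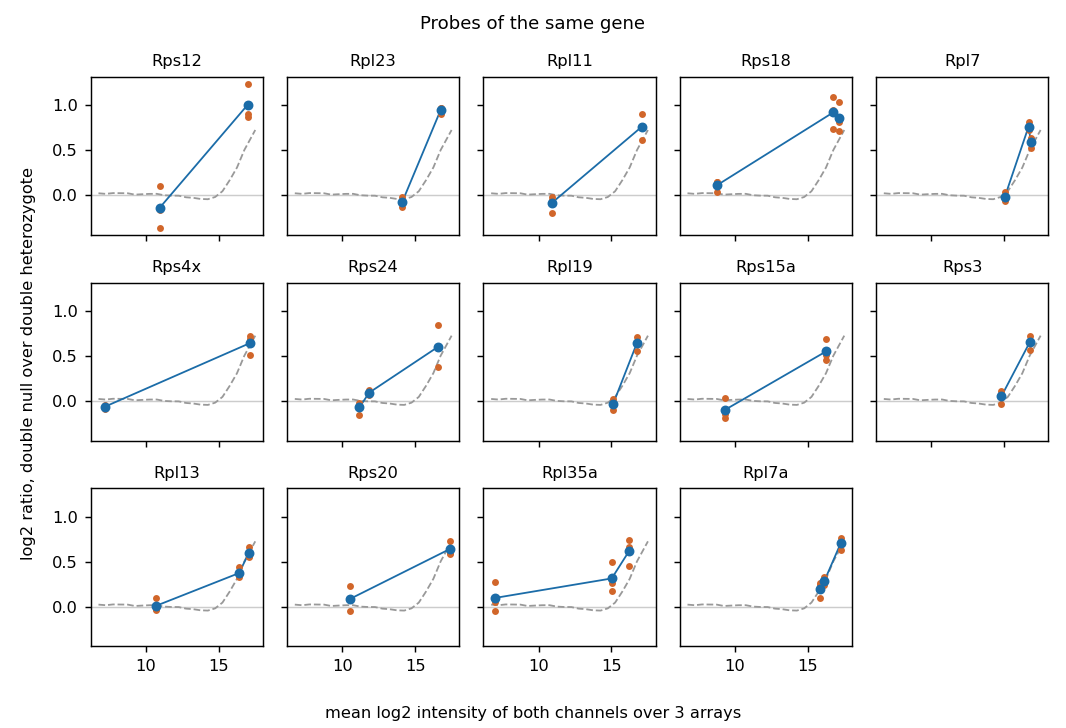
Log2 ratio (vertical axis) against mean log2 intensity (horizontal axis) for the probes of 14 of the genes whose probes differed by more than 0.5; blue points are means joined within a gene, orange points the 3 arrays, and the dashed line the median of other probes. The dimmest probe lies lowest in every panel, and the brightest of each gene lies between 0.55 and 1.00.

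Some probes were not drawn from the reference mRNA or were not unique. The 108 probes on reference mRNAs had a median of 0.48 and 63 calls, and the 18 drawn from other accessions a median of 0.047 and 3 calls, but the latter were also dimmer, with a median intensity of 11.09 against 16.43. In all, 18 of the 126 probes shared at least 25 bases with another probe on the array, 10 of them with a probe of the same gene and 6 with a probe of another name on the same strand. Ribosomal protein genes have many processed pseudogenes, and signal from such copies cannot be told apart from that of the parent gene at these probes. The Rps21 pair that shares sequence differed in sign, at 0.20 and -0.13, with intensities of 16.13 and 14.12.

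Processing moved the ratio far more than the difference from like-bright probes. That difference subtracts the neighbours' median, so a shift shared by probes of like brightness is removed from it by construction. Its steadiness is therefore no separate check of the ratios. The median log2 ratio was 0.97 with median centring alone, 0.26 with loess on probes above background at a span of 0.3, and 0.075 at a span of 0.05. The median difference over the same settings was 0.14, 0.11 and 0.092, and 0.12 with the processed signals. Between 94 and 100 of 126 probes lay above their neighbours in these 4. Removing ribosomal protein and translation probes from the loess fit left the median at 0.42. Leaving out array 3 lowered the calls from 66 to 33, while leaving out array 1 or 2 gave 65 and 49, and the median difference without array 3 was 0.15.

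**Figure D5:**
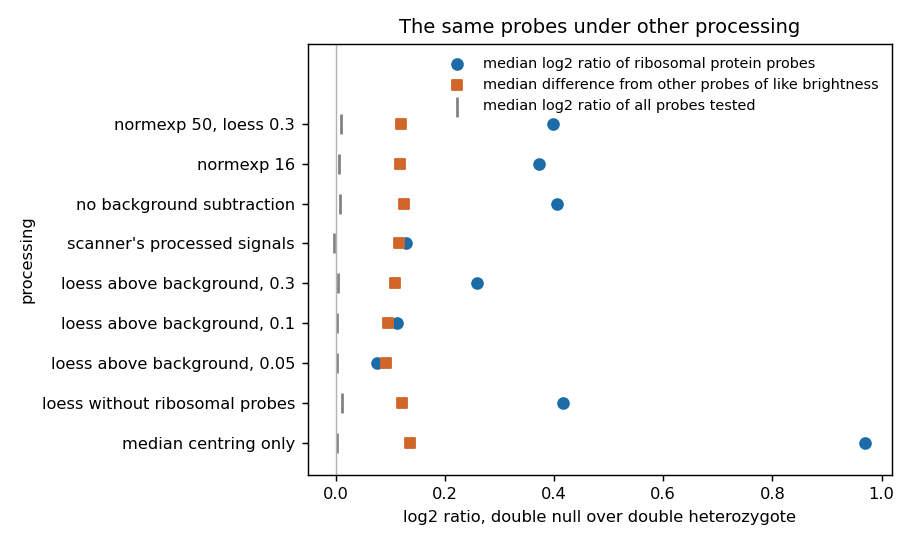
Median log2 ratio of the 126 ribosomal protein probes (blue), their median difference from like-bright other probes (orange) and the median log2 ratio of all probes tested (grey), for 9 ways of processing the arrays. The blue points run from 0.075 to 0.97 while the orange ones stay between 0.092 and 0.14. A shift shared by probes of like brightness cancels in the orange values by construction.

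Other genes of translation and ribosome assembly were read from lists, each gene by its brightest probe where values are given. For the counts below, 1.22% of all probes were called higher, and 62.0% of probes outside the name rule above an intensity of 16. Ribosomal proteins outside the name rule gave 5 of 11 probes called higher and 0 lower, with a median of 0.30. Their median intensity was 15.82. Among them, Rack1 (listed as Gnb2l1) gave 0.69, 0.81 and 0.77. Fau, a fusion with a ubiquitin-like protein, gave 0.088, 0.38 and 0.34 at the same brightness (limma adjusted p = 0.120). Translation factors and other mRNAs with a pyrimidine tract at the start gave 10 of 31 probes called higher and 0 lower. Their median ratio was 0.20, their median difference from like-bright probes 0.079 and their median intensity 14.87. Eef1b2, an exchange factor of elongation factor 1, gave 0.65, 1.01 and 0.76, and Eef1g 0.78, 0.77 and 0.75. Eif4b, at a lower intensity of 12.79, had a mean of -0.11 (limma adjusted p = 0.445).

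Ribosome assembly genes were read by dimmer probes, at a median intensity of 13.001 against 16.24 for ribosomal proteins. Of 42 probes of 25 genes, 2 were called higher and 1 lower, with a median of -0.017 and a median difference of -0.049. The 2 were the nucleolar proteins nucleolin (Ncl, 0.24, 0.39 and 0.49) and fibrillarin (Fbl, 0.40, 0.40 and 0.40), which at intensities of 17.09 and 17.06 lay 0.16 and 0.13 below their neighbours. Rrs1, needed for assembly of the large subunit, was the one called lower, with a mean of -0.30 (limma adjusted p = 0.046). Mitochondrial ribosomal proteins gave 0 of 121 probes called, with a median of 0.037, a median difference of 0.039 and a median intensity of 12.85. Other abundant mRNAs, of enzymes and the cytoskeleton, gave 11 of 44 probes called higher and 0 lower. These mRNAs had a median of 0.18, a median difference of -0.029 and a median intensity of 15.62. These included the glycolytic enzymes Ldha (1.04, 1.01 and 0.83) and Aldoa (0.56, 0.49 and 0.46), the first level with the top ribosomal protein probes. Tubb5, a tubulin, gave 0.080, 0.19 and 0.27 at 16.81 and lay 0.31 below its neighbours. No test compared these lists with the ribosomal protein probes.

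The promoters of the genes were searched for 2 motifs as a description. RefSeq windows from 250 bases before to 50 after the start (assembly GRCm38.p6) matched 56 of 77 genes by symbol. The letters CTCTTTC, on either strand, were found in 17 of 56 windows (30.4%), against 9.24% of 26969 other genes. Within 30 bases of the annotated start, the shares were 14.3% (8 genes) and 0.942%. The letters CCGGAAG were found in 41.1% of the windows against 9.86%, and within 30 bases of the start in 16.1% against 2.30%. Both motifs were counted in the same windows, and annotated starts can be off by some bases. The motif in 3 genes with different ratios is shown in capitals in 30-base windows, to show how its place varies. Counted from 1 at the annotated first base, it begins at -20 in Rpl5, upstream of the annotated mRNA, at 1 in Rpl35a and at 6 in Rps26. The windows lie at chr5:107900497-107900526 on the plus strand, chr16:33056471-33056500 on the plus strand and chr10:128626483-128626512 on the minus strand.

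Rpl5, log2 ratio of the brightest probe 0.96: gcctacagccaCTCTTTCtcacgtcgcttg

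Rpl35a, log2 ratio of the brightest probe 0.62: ggcttgccttcCTCTTTCcgccatcttggc

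Rps26, log2 ratio of the brightest probe 0.27: gccgccggatcCTCTTTCgagtcttggctc

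The 8 genes with these letters near the start had brightest-probe ratios from 0.27 to 0.96. A match is a run of letters and no measured site.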

How the data were processed

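The authors extracted the arrays with Agilent Feature Extraction (version 9.5.1.1), per the submitters' processing notes. Per the file headers, each deposited file gives the unnormalized intensity of every spot and of its local background in both channels, and a processed intensity after background subtraction and dye normalization. It also gives the log10 ratio of the processed values (Cy5 to Cy3), per the file headers. The authors' deposited table of log2 ratios was the same quantity: after conversion it differed from the log10 ratio by at most 2.01e-06 on any spot, and its column medians were -0.012, -0.0082 and -0.0031. The files place probes on mm7, per the file headers.

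Background was corrected with normexp (offset 50). Ratios were normalized by loess (span 0.3, control spots at weight 0), spots marked as outliers were left out (143 to 175 per array), and spots of a probe were averaged. Probes marked well above background on every array, in 1 channel or both, were kept (25506) and tested against 0 by an intercept-only fit in limma 3.58.1 (R 4.3.3) and Benjamini-Hochberg adjustment over all of them, at a threshold of 0.05. Standard errors are limma's, and n is 3 arrays. Mean log2 intensity is taken after background correction over both channels. A difference from like-bright probes is the ratio minus the median of about 100 nearest other probes in mean log2 intensity, taken within each array and on the mean over arrays. The number of arrays limits the precision. On simulated ratios for all 25506 probes, 77 of 100 probes at a log2 change of 0.5 and 99 of 100 at 1 were called, and 13 of 25306 without a change; these simulations held no dye effect.

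The members, gene lists and tests were chosen with earlier results of these data known. Probes named are the 8 highest and 8 lowest ratios, then the 4 highest and 4 lowest brightness differences, genes whose probes differ by over 0.5, stalk, Rpsa and paralogue genes, disease and mutant genes, and the 2 brightest of each context list; others are named after their values were seen. Alternatives changed the background correction, signals, normalization, filter, probe rule, fit, threshold, brightness measure and array set. The exon or UTR position of probes was not annotated here. Some genes named by this rule are not reported here, though the counts over all ribosomal protein probes include them.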

Additional observations from a re-analysis of the deposited data

How the results depend on the processing

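The 66 calls became 0 with the processed signals, with the authors' deposited table and with loess on probes above background at spans of 0.1 and 0.05, and 112 with median centring; leaving out 1 array gave 33 to 65. Calls lower went from 0 to 3 with median centring (a dim probe each of Rpl37, Rpl35a and Rps4x) and to 1 (the dimmer Rpsa probe) at an adjusted p under 0.10 and in the separate-channel fit. The median ratio of 0.40 was 0.13 under the first 2 of these, 0.26, 0.11 and 0.075 with loess above background at spans of 0.3, 0.1 and 0.05, 0.97 with median centring and 0.56 with the brightest probe of each gene. The median difference of 0.12 was 0.17 with the brightest probe and 0.21 with the mean of all probes of each gene. It was 0.11 with the narrower window of 51 probes and 0.16 with a wider one, and 0.16 and 0.098 with brightness from Cy3 or Cy5 alone, which were chosen after seeing the data. Calls over all probes, 384 here, were 199 with a normexp offset of 16, 0 with the processed signals and the deposited table, 210, 11 and 12 with loess above background, 13927 with median centring, 993 with an intensity trend, 1082 at 0.10 and 866 with separate channels, and 86 to 305 with an array left out. The cause of these moves was not tested.

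Of 32 named probes that were called, 0 kept the call under every alternative and 5 changed sign under at least 1. At a span of 0.05 Rps4x fell to -0.010, Rps20 to -0.097 and the 2 brighter Rpl13 probes to -0.035 and -0.033. Rpl36a gave -0.057 with the processed signals and the deposited table, and -0.098 and -0.16 at spans of 0.1 and 0.05. Under median centring, uncalled probes changed sign and passed: Rpl35a -0.40, Rpl7 0.42, Rpl19 0.42, Rplp0 0.42, Rpl23 0.26 and Rps21 0.21. The fit on ratios within an array is itself the paired analysis. The ratio of a bright probe rests on 3 arrays of 1 dye orientation, and few other probes are as bright.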

Other observations

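Probes whose description in the files names a ribosomal protein but whose gene name lies outside the rule were mostly predicted loci and transcript clusters. There were 69 such probes of 68 names, of which 26 (37.7%) were called higher and 0 lower with limma at an adjusted p under 0.05. By the same test 1.22% of all probes were called higher, and 62.0% of probes outside the name rule above an intensity of 16. The 69 probes had a median intensity of 14.21, a median log2 ratio of 0.13 and a median difference from like-bright probes of 0.037. On all 3 arrays 30 of them lay above their neighbours and 10 below. The brightest, LOC625603, gave 0.60, 0.72 and 0.57 at an intensity of 17.20, and the locus LOC243642 gave 0.40, 0.41 and 0.40 at 17.05, which lay 0.13 below its neighbours. Whether these probes read the predicted loci or the parent ribosomal protein mRNAs was not tested.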
